A study of Mus musculus with 35 samples.

Results

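The Kruppel-like factors (Klf genes) examined here were Klf2, Klf3, Klf4, Klf6, Klf7, Klf9, Klf10 and Klf13, 8 of the 47069 Ensembl gene rows in each library. They were found by symbol (GENCODE release M21, GRCm38), and each symbol matched a single row. On GRCm38 the annotation places Klf2 (ENSMUSG00000055148) at chr8:72319033-72321656 on the plus strand, Klf3 (ENSMUSG00000029178) at chr5:64803388-64832901 on the plus strand, Klf4 (ENSMUSG00000003032) at chr4:55527143-55532466 on the minus strand, Klf6 (ENSMUSG00000000078) at chr13:5861482-5870394 on the plus strand. It places Klf7 (ENSMUSG00000025959) at chr1:64029447-64122282 on the minus strand, Klf9 (ENSMUSG00000033863) at chr19:23141226-23168134 on the plus strand, Klf10 (ENSMUSG00000037465) at chr15:38291463-38300706 on the minus strand and Klf13 (ENSMUSG00000052040) at chr7:63886351-63938915 on the minus strand. The libraries came from mouse bone marrow-derived macrophages (BMDMs) of the C57BL/6 background, grown from marrow in medium conditioned by L929 cells. Of 35 libraries, 17 were from wild-type (WT) mice and 18 carried the label AMPKa1-/-. AMPKα1, encoded by Prkaa1, is a catalytic subunit of AMP-activated protein kinase. All cultures were kept for 24 h with 1 of 6 treatments. These were vehicle (DMSO), 100 nM dexamethasone (Dex, a synthetic glucocorticoid), 100 ng/ml lipopolysaccharide (LPS, the bacterial ligand of TLR4), LPS + Dex, 1 µg/ml DAMPs (danger-associated molecules) and DAMPs + Dex. Each group had 3 libraries, except WT LPS with 2 (replicates 2 and 3). The study's methods describe mixed-sex cohorts and, in general, cultures from individual mice. Whether libraries with the same replicate number came from the same mouse is not given. Values are FPKM, the fragments of a gene scaled to its length and to the library's total, and library totals read from the FPKM steps of weak genes ranged from 15837203 to 31955298 fragments.

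Prkaa1 was read first as a check of the genotype labels. In WT it stood at 15.9, 11.8 and 15.3 FPKM with vehicle, 26.1, 23.2 and 19.1 with Dex, 15.3 and 10.4 with LPS, 20.5, 13.7 and 8.59 with LPS + Dex, 17.9, 12.4 and 11.03 with DAMPs and 20.9, 12.51 and 19.5 with DAMPs + Dex. The libraries labelled AMPKa1-/- had 14.8, 16.5 and 15.4 FPKM of Prkaa1 with vehicle, 21.5, 14.0 and 20.4 with Dex, 9.05, 11.2 and 10.5 with LPS, 12.52, 12.9 and 9.65 with LPS + Dex, 10.7, 15.8 and 16.4 with DAMPs and 21.8, 20.0 and 24.0 with DAMPs + Dex. The ranges of the genotypes overlapped in all 6 treatments, and no genotype comparison called Prkaa1. A value over the whole gene cannot show a deletion of part of it, so the label could not be checked and is used as given. All 7 macrophage markers had a mean of at least 1 FPKM, with Lyz2 the most abundant at 10343 to 35906 FPKM. The medians of all 6 T cell markers, of the B cell markers Ms4a1 and Pax5 and of the erythroid markers Hbb-bs and Hba-a1 were 0. The same held for Flt3 and Siglech among 5 dendritic cell markers, for Mcpt4, Tpsb2 and Fcer1a among 4 mast cell markers, for Emcn among 5 endothelial markers and for Ly6g, Elane and Mpo among 8 neutrophil markers.

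Kruppel-like factors are transcription factors whose C-terminal zinc fingers bind GC-rich and CACCC-type DNA. Family members differ in their N-terminal parts, through which some activate genes and others recruit corepressors such as CtBP or Sin3. In myeloid cells KLF2 is known as a factor of quiescence that opposes NF-κB activity, KLF4 as a factor of monocyte and alternatively activated macrophage differentiation, and KLF9 as a direct target of the glucocorticoid receptor.

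Klf4, Klf9 and Klf13 moved together in these libraries, and the 250 bases before their starts are shown for that reason (RefSeq, GRCm38.p6). They lie at chr4:55532476-55532725 on the minus strand for Klf4, chr19:23140976-23141225 on the plus strand for Klf9 and chr7:63938916-63939165 on the minus strand for Klf13. Each is written 5′ to 3′ along the gene's strand, with capitals for matches on either strand to 6 motifs. These were the GC box GGGCGG, the CACCC box, the CCAAT box and the cAMP response element core TGACG. The others were the E-box CACGTG and AGAACA, an arm of the glucocorticoid response element.
Klf4: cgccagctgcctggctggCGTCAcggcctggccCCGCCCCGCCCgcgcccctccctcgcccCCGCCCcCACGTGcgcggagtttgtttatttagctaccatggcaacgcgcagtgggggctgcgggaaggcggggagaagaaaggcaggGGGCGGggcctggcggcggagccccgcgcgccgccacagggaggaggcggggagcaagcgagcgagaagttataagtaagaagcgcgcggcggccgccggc
Klf9: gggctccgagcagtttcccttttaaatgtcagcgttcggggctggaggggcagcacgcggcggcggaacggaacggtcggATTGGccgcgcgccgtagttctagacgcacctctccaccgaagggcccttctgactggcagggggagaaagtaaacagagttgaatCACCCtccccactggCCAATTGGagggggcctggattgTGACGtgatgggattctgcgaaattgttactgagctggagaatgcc
Klf13: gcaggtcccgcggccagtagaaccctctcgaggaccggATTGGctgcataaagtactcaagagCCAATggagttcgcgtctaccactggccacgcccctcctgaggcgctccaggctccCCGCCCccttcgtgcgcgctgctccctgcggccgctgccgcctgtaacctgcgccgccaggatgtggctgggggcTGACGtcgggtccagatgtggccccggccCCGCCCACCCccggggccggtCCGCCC
The Klf4 window held 4 matches to GGGCGG, 1 to TGACG and 1 to CACGTG. In the Klf9 window there were 3 matches to CCAAT, 1 to CACCC and 1 to TGACG, and none to GGGCGG. The Klf13 window had 3 matches to GGGCGG, 2 to CCAAT, 1 to CACCC and 1 to TGACG. Among 32851 windows of 250 bases in the RefSeq table, GGGCGG was present in 32.7%, CACCC in 52.0%, CCAAT in 33.8%, TGACG in 17.8%, CACGTG in 6.02% and AGAACA in 16.1%. TGACG was matched once in each of the 3 windows. Windows were also found for Klf2, Klf3, Klf6 and Klf7, of which that of Klf2 also held 1 match to TGACG and the other 3 none. AGAACA was matched in none of the 7 windows. A match describes letters only, overlapping matches share letters, and binding was not measured.

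Dex raised Klf4, Klf9 and Klf13 with no stimulus, with LPS and with DAMPs, in both genotypes. LPS lowered Klf2, Klf4, Klf9, Klf10 and Klf13 and raised Klf7 in both genotypes, and with DAMPs against vehicle none of the 8 genes was called. A gene was called when its adjusted p in limma was below 0.05, and log2 fold changes are of FPKM + 1. Among 11354 genes tested in WT, Dex against vehicle called 5 of the 8 higher and 0 lower, where 15.9% of all genes were called higher and 14.9% lower. The 5 were Klf3, Klf4, Klf6, Klf9 and Klf13. LPS against vehicle called 2 higher and 5 lower, beside 19.9% and 35.8% of all genes. LPS + Dex against LPS called 4 higher (Klf2, Klf4, Klf9 and Klf13) and 3 lower (Klf3, Klf6 and Klf7), beside 16.6% and 17.5%. DAMPs against vehicle called 0 in either direction, beside 1.22% and 0.793%, and 1 gene (Klf10) had an unadjusted p below 0.05 (log2 fold change -0.49, 95% interval -0.84 to -0.15, adjusted p = 0.1696, limma). Its DAMPs libraries (6.90 to 9.10 FPKM) did not overlap the vehicle libraries (10.3 to 13.3). The share of all genes without such overlap is not given here, and no response to DAMPs is read from it. DAMPs + Dex against DAMPs called 3 higher (Klf4, Klf9 and Klf13) and 0 lower, beside 11.7% and 12.6%.

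In the libraries labelled AMPKa1-/-, Dex against vehicle called 3 higher (Klf4, Klf9 and Klf13) and 1 lower (Klf10), where 11.9% and 16.0% of all genes were called. LPS against vehicle called Klf7 higher and 6 genes lower, with 20.2% and 44.1% of all genes. The 6 were those of WT and Klf6. LPS + Dex against LPS called 4 higher and 2 lower, with 19.3% and 18.4%, and lacked only Klf3 of the WT calls. With the replicate number as a random block, which pairs the libraries in this comparison, 8 were called, Klf3 lower (adjusted p = 0.0464, limma) and Klf10 higher (adjusted p = 0.0446) among them. A fixed block gave 6. The share of all genes called with either block is not given here, and nothing particular to the 8 is read from these counts. DAMPs against vehicle again called 0, with 1.89% higher and 2.24% lower, and 0 of the 8 had an unadjusted p below 0.05. The groups did not overlap for Klf4, at 4.94 to 6.75 FPKM with DAMPs and 6.91 to 7.84 with vehicle. DAMPs + Dex against DAMPs called 3 higher and 1 lower (Klf10), with 13.1% and 12.2%. Over the 11354 genes the median shift with LPS was -0.19 (log2) in WT and -0.30 in the libraries labelled AMPKa1-/-, and small falls with LPS are to be read against these. With LPS + Dex against LPS it was -0.03 and 0.01. Over both genotypes, Saa3 alone took 16.0 to 24.0% of the summed FPKM with LPS + Dex, 3.74 to 7.58% with LPS and at most 0.034% with vehicle. The highest share was in WT LPS + Dex replicate 3. The part of Saa3 in the Klf values and their sums was not tested. Comparisons against vehicle share the vehicle libraries, and the 2 LPS comparisons of a genotype share the LPS libraries.

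**Figure D1:**
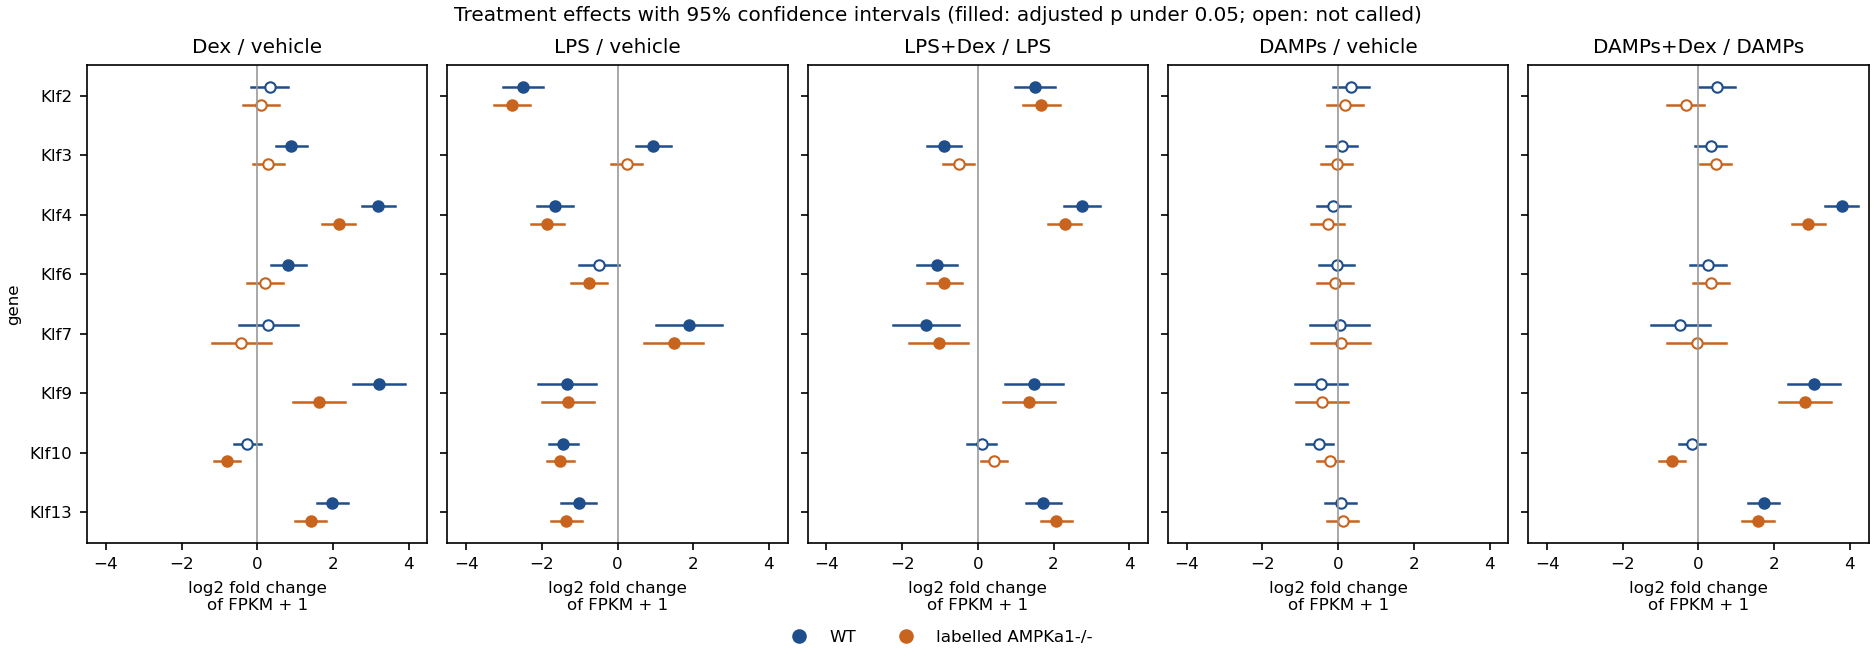
Log2 fold change of FPKM + 1 (horizontal axis) of the 8 Klf genes (vertical axis) in 5 treatment comparisons, with 95% confidence intervals, for WT (blue) and the libraries labelled AMPKa1-/- (orange). Filled points are called; Klf4, Klf9 and Klf13 are filled to the right of 0 in all 3 panels of Dex, and no point is filled for DAMPs against vehicle.

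Klf4 had the widest range of the 8 as a ratio, from 0.765 FPKM in an LPS library to 104 in a DAMPs + Dex library. In WT it stood at 4.66, 7.12 and 7.32 FPKM with vehicle and at 54.5, 91.9 and 56.7 with Dex, a 10.6-fold higher mean (log2 fold change 3.20, SE 0.21, adjusted p = 3.74e-12). LPS left 1.28 and 1.34 FPKM, and LPS + Dex 15.1, 17.0 and 11.99. Every LPS + Dex library was thus above every vehicle library, and the LPS libraries were below both. DAMPs libraries had 5.45, 6.29 and 5.23 FPKM of Klf4 and DAMPs + Dex libraries 68.6, 104 and 104, the highest of any group (log2 fold change 3.78, SE 0.21, adjusted p = 9.14e-14). In the libraries labelled AMPKa1-/- the order of treatments was the same, with 40.1, 33.9 and 34.7 FPKM for Dex, 1.11, 0.765 and 2.29 for LPS, 8.67, 10.7 and 11.9 for LPS + Dex and 42.2, 59.0 and 51.2 for DAMPs + Dex. Dex and DAMPs + Dex overlapped in WT and did not in the labelled libraries.

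Klf9 was low with vehicle, at 3.77, 1.44 and 4.14 FPKM in WT, and rose to 37.4, 42.0 and 28.3 with Dex, an 11.5-fold higher mean (log2 fold change 3.22, SE 0.34, adjusted p = 2.47e-08). LPS gave 0.519 and 0.605 FPKM and LPS + Dex 6.56, 2.997 and 1.76. The LPS + Dex values of Klf9 therefore reached the vehicle range and not the Dex range, whereas all 3 LPS + Dex libraries were above all vehicle libraries for Klf4 and Klf13. With DAMPs + Dex Klf9 was at 24.4, 15.2 and 31.9 FPKM, beside 3.13, 1.52 and 1.29 with DAMPs. The labelled libraries had 11.7, 6.71 and 13.9 FPKM with Dex and 25.2, 18.2 and 13.0 with DAMPs + Dex. Fitted on the WT LPS and LPS + Dex libraries alone, the rise of Klf9 with LPS + Dex had an adjusted p of 0.0534 (limma), against 2.53e-03 with all groups.

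Klf13, a factor known for activating the chemokine gene Ccl5 in T cells, was an abundant member. Its WT values were 41.5, 38.7 and 48.2 FPKM with vehicle, 150, 203 and 168 with Dex, 22.1 and 18.8 with LPS, and 88.6, 78.0 and 49.6 with LPS + Dex. DAMPs libraries had 49.8, 47.0 and 37.7 FPKM, and DAMPs + Dex libraries 134, 126 and 196. The log2 fold change of Klf13 was 1.99 (SE 0.20) for Dex against vehicle, 1.73 (SE 0.23) for LPS + Dex against LPS and 1.72 (SE 0.20) for DAMPs + Dex against DAMPs, and in each the groups did not overlap. In the labelled libraries the same differences were 1.42, 2.08 and 1.57, with SE 0.20 each.

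**Figure D2:**
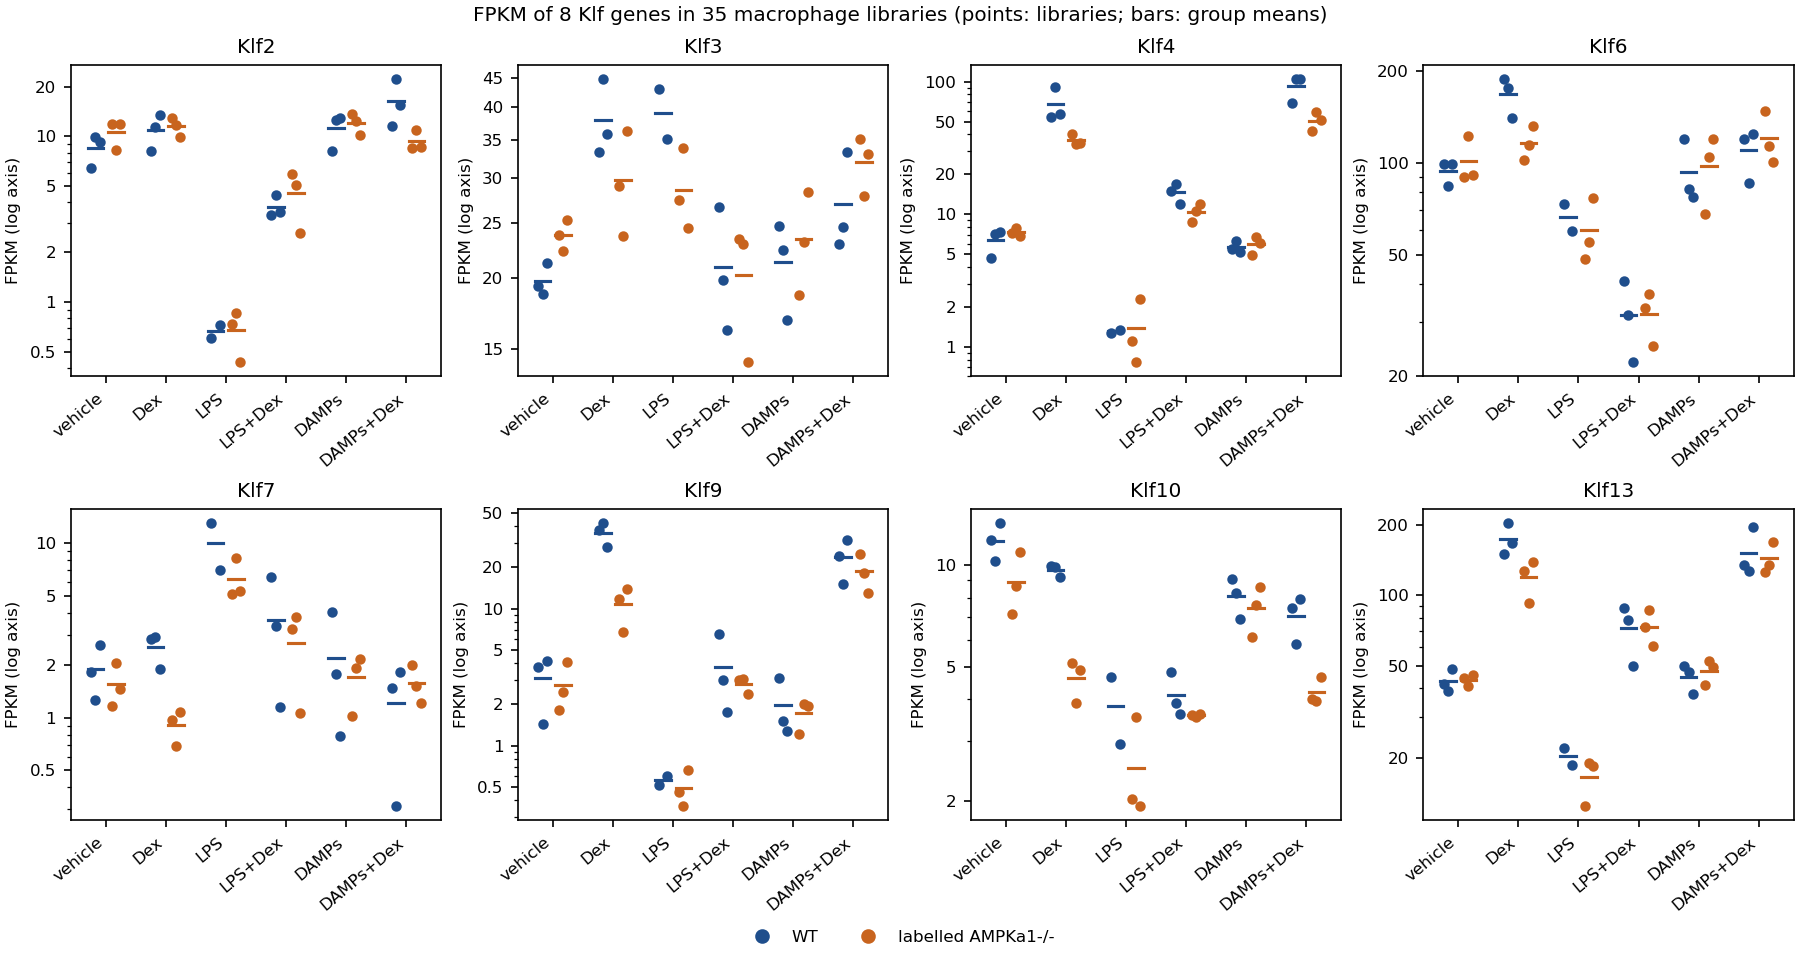
FPKM of each of the 8 Klf genes (vertical axes, logarithmic, each with its own scale) in the 6 treatments (horizontal axes), WT in blue and libraries labelled AMPKa1-/- in orange. Points are single libraries and bars are group means; Klf4, Klf9 and Klf13 are high in the Dex and DAMPs + Dex groups, and Klf2 is below 1 FPKM in all 5 LPS libraries.

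Klf2 fell most of the 8 with LPS. It stood at 6.45, 9.89 and 9.27 FPKM with vehicle in WT and at 0.611 and 0.727 with LPS, a 12.8-fold lower mean (log2 fold change -2.50, SE 0.26, adjusted p = 4.02e-09). Labelled libraries had 11.9, 8.25 and 11.9 FPKM with vehicle and 0.739, 0.865 and 0.436 with LPS, the lowest of which rests on 16 fragments. LPS + Dex gave 3.34, 4.44 and 3.50 FPKM of Klf2 in WT and 5.94, 5.12 and 2.61 in the labelled libraries, above every LPS and below every vehicle library of the same genotype. Dex against vehicle did not call Klf2, with 8.12, 11.5 and 13.5 FPKM in WT (log2 fold change 0.33, 95% interval -0.15 to 0.80). DAMPs + Dex libraries had 11.5, 22.1 and 15.5 FPKM in WT and 8.48, 10.97 and 8.61 when labelled AMPKa1-/-.

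Klf10, first described as a gene induced early by TGF-β, fell with LPS from 11.8, 10.3 and 13.3 FPKM to 4.67 and 2.95 in WT (log2 fold change -1.43, SE 0.19, adjusted p = 2.86e-07). LPS + Dex gave 4.83, 3.89 and 3.61 FPKM, which overlapped LPS. Dex against vehicle differed between genotypes in its call but not by a test of the difference. WT Dex libraries had 9.91, 9.85 and 9.23 FPKM of Klf10, all below the vehicle libraries (log2 fold change -0.26, 95% interval -0.60 to 0.09). The labelled libraries went from 7.14, 8.63 and 10.9 FPKM with vehicle to 5.12, 3.90 and 4.88 with Dex (log2 fold change -0.80, SE 0.17, adjusted p = 6.47e-04). The difference between these changes was -0.54 (95% interval -1.03 to -0.05, adjusted p = 0.207). With a gene-length score of the libraries as a covariate, defined with the genotype comparison, Klf10 was called lower with Dex in both genotypes. The changes were then -0.49 in WT and -0.65 in the labelled libraries (adjusted p = 7.30e-03 and 3.17e-04, limma). With DAMPs + Dex the labelled libraries had 4.01, 3.94 and 4.64 FPKM of Klf10 beside 6.10, 7.62 and 8.61 with DAMPs (log2 fold change -0.69, SE 0.17, adjusted p = 2.80e-03), and WT had 7.47, 5.84 and 7.92 beside 9.10, 8.26 and 6.90, which overlapped.

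In WT, Klf6 and Klf3 changed in opposite directions with Dex alone and with Dex added to LPS. Klf6, an abundant member known in macrophages for promoting inflammatory gene expression, had 98.9, 83.9 and 98.8 FPKM with vehicle, 187, 176 and 140 with Dex, 73.1 and 59.8 with LPS and 41.0, 31.6 and 22.2 with LPS + Dex in WT. It rose with Dex (log2 fold change 0.82, SE 0.23, adjusted p = 7.27e-03) and fell with LPS + Dex against LPS (log2 fold change -1.08, SE 0.26, adjusted p = 1.38e-03), with no overlap in either. In the labelled libraries the values with LPS were 48.5, 55.0 and 76.6 FPKM and with LPS + Dex 33.5, 37.1 and 25.1, and the rise with Dex was not called, at 102, 114 and 132 FPKM beside 90.0, 122 and 91.4 with vehicle. With the gene-length score as a covariate the rise with Dex was 0.40 in WT and 0.47 in the labelled libraries. Both were then called (adjusted p = 0.0301 and 7.18e-03, limma). DAMPs and DAMPs + Dex libraries of Klf6 lay between 68.1 and 148 FPKM over both genotypes, and the difference between them was not called in either.

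Klf3, a repressor that binds CtBP, ranged from 14.2 to 44.8 FPKM, the narrowest range of the 8 as a ratio. WT libraries had 19.4, 18.8 and 21.3 FPKM with vehicle, 33.3, 44.8 and 35.8 with Dex, 43.1 and 35.1 with LPS and 26.7, 19.9 and 16.2 with LPS + Dex. The log2 fold changes of Klf3 were 0.90 (SE 0.20) for Dex against vehicle, 0.94 (SE 0.22) for LPS against vehicle and -0.89 (SE 0.22) for LPS + Dex against LPS. Without WT LPS replicate 2, which leaves LPS replicate 3 alone, the last was -0.75, and no test is read from that fit. In the labelled libraries these 3 differences were 0.29, 0.24 and -0.50, none of them called. With the gene-length score as a covariate they were 0.52, 0.51 and -0.52, all of them called (adjusted p = 1.20e-03, 5.38e-04 and 4.67e-04, limma).

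Klf7 had the lowest mean of the 8 over all 35 libraries, at 2.82 FPKM, and was called higher with LPS in both genotypes, as Klf3 also was with the score as a covariate. With LPS its mean was above those of Klf2, Klf4, Klf9 and Klf10. It had 1.83, 1.27 and 2.62 FPKM with vehicle in WT and 13.0 and 7.03 with LPS (log2 fold change 1.89, SE 0.43, adjusted p = 4.28e-04). Labelled libraries had 1.17, 2.06 and 1.45 FPKM with vehicle and 5.11, 8.28 and 5.35 with LPS. With LPS + Dex the values were 6.41, 3.35 and 1.15 FPKM in WT and 3.24, 3.79 and 1.07 in the labelled libraries, below every LPS library of their genotype. The fall in WT (log2 fold change -1.37, SE 0.43, adjusted p = 0.0133) was not called without WT LPS + Dex replicate 3 (adjusted p = 0.104) or with only the groups compared (0.13). Without WT LPS replicate 2, which leaves LPS replicate 3 alone, this fall was -0.97, and no test is read from that fit. The fall in the labelled libraries (log2 fold change -1.03, adjusted p = 0.0336) was not called without LPS replicate 2 (0.133), LPS replicate 3 (0.0507) or LPS + Dex replicate 3 (0.224), with a pseudocount of 0.1 (0.0683) or with no filter (0.0798).

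The effect of Dex was then compared between cultures with and without LPS, by the difference of the 2 log2 fold changes. In WT this difference was called for 5 of the 8 genes, where 32% of all genes were called. It was negative for Klf6 (-1.91), Klf3 (-1.79), Klf9 (-1.74) and Klf7 (-1.67) and positive for Klf2 (1.18), with SE between 0.30 and 0.57. The call of Klf7 was lost under 9 of 20 alternatives and that of Klf9 with a pseudocount of 0.1 (adjusted p = 0.136, limma). The labelled libraries gave 4 calls, beside 28.4% of all genes, for Klf6 (-1.09), Klf3 (-0.79), Klf10 (1.22) and Klf2 (1.57), of which that of Klf3 was lost under 9 of 22 alternatives. With a gene-length score of the libraries as a covariate, which is defined with the genotype comparison, the WT differences were -0.81 for Klf9 and -0.53 for Klf7 (adjusted p = 0.0361 and 0.121, limma), and Klf10 was also called (0.71). Klf7 (-1.14) and Klf9 (-0.70) were then also called in the labelled libraries. Klf4 and Klf13 were not called in either genotype, with differences of -0.45 (95% interval -1.10 to 0.20) and -0.26 (-0.88 to 0.36) in WT and of 0.14 (-0.48 to 0.75) and 0.66 (0.08 to 1.25, adjusted p = 0.0862, limma) in the labelled libraries. Between cultures with and without DAMPs the effect of Dex was called different for 0 of the 8 in both genotypes, where 0.00881% of all genes were called in WT and 0.308% in the labelled libraries. At an unadjusted p below 0.05 these counts were 0 in WT and 2 in the labelled libraries.

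The genotypes were compared within each treatment. With vehicle, LPS, LPS + Dex and DAMPs, 0 of the 8 genes were called, where 0.432%, 0.766%, 0.669% and 0.731% of all genes were, and the members with an unadjusted p below 0.05 numbered 1, 1, 1 and 0, beside 700, 1300, 921 and 860 of the 11354 genes. With Dex, 4 were called lower in the libraries labelled AMPKa1-/- (Klf4, Klf9, Klf10 and Klf13) and 0 higher. Of the 11354 genes, 1763 were called lower and 1245 higher, which is 26.5% in either direction. Their log2 fold changes were -0.85 for Klf4 (SE 0.21, adjusted p = 9.74e-03), -1.69 for Klf9 (SE 0.34, adjusted p = 2.70e-03), -0.93 for Klf10 (SE 0.17, adjusted p = 1.38e-03) and -0.55 for Klf13 (SE 0.20, adjusted p = 0.0470). The Dex libraries of the genotypes did not overlap for any of the 4, nor for Klf6 and Klf7, which were not called. The share of all genes without overlap is not given here, and nothing is read from it. Without WT Dex replicate 2, 2 of the 8 and 304 genes were called in place of 4 and 3008. Without the labelled Dex replicate 2 these were 2 and 308, and without WT Dex replicate 1 the genes called were 1662. Klf4 was not called without either replicate 2 (adjusted p = 0.0983 and 0.0653, limma), and the call of Klf13 was lost under 11 of 16 alternatives. Tested as the difference between genotypes in the change from vehicle to Dex, 0 of the 8 and 0% of all genes were called, with 4 of the 8 and 2441 genes at an unadjusted p below 0.05. The differences of Klf4 (-1.04, 95% interval -1.66 to -0.43) and Klf9 (-1.60, 95% interval -2.57 to -0.62) both had an adjusted p of 0.194. The same difference for LPS against vehicle, LPS + Dex against LPS, DAMPs against vehicle and DAMPs + Dex against DAMPs called 0% of all genes each, with 1, 0, 0 and 3 of the 8 and 514, 311, 66 and 234 genes at an unadjusted p below 0.05.

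Klf4 was also lower in the labelled libraries with DAMPs + Dex (log2 fold change -0.83, SE 0.21, adjusted p = 0.0489), 1 of the 8. Beside it, 57 genes were called lower and 63 higher, 1.06% of all genes in either direction. Klf10 (-0.63, adjusted p = 0.0722, limma) and Klf2 (-0.71, adjusted p = 0.190) also had ranges that did not overlap, and 3 of the 8 and 1067 genes had an unadjusted p below 0.05. The call of Klf4 was lost under 4 other settings and without 5 of the 6 libraries, with adjusted p up to 0.276. With LPS + Dex the Klf4 values of the genotypes did not overlap (11.99 to 17.0 and 8.67 to 11.9 FPKM) and the difference was not called (log2 fold change -0.46, adjusted p = 0.557). In all 3 treatments with Dex, each WT library was thus above each labelled library, whereas the genotypes overlapped with vehicle, LPS and DAMPs.

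A property of the libraries moved with the comparison of genotypes in Dex, and with some treatment comparisons. For each library the median log2 deviation of the shortest quartile of genes (up to 2719 bases) was subtracted from that of the longest (at least 6732 bases). This used 8590 genes with a mean of at least 5 FPKM. This long-minus-short score was 0.50, 0.74 and 0.31 in the WT Dex libraries and -0.11, -0.47 and 0.01 in the labelled Dex libraries, without overlap. With LPS the genotypes did not overlap either (-0.11 and 0.21 in WT, at most -0.13 in the labelled libraries), and with the other 4 treatments they did. WT LPS + Dex libraries had 0.29, -0.14 and -0.60. Vehicle libraries scored -0.17 to 0.25 in WT, below all WT Dex libraries. In the labelled libraries vehicle scored -0.02 to 0.15, above all labelled LPS libraries. Klf3 and Klf13, at 11243 and 7531 bases of exon, are among the long genes and Klf2, at 1847, among the short ones. Klf7, at 8131 bases, has the length of a long gene, but its mean of 2.82 FPKM kept it out of the score. With the score as a covariate, the comparison of genotypes in Dex called 0 of the 8 and 143 genes in all. Klf4 (-0.74), Klf9 (-0.68) and Klf10 (-0.55) kept their sign with adjusted p of 0.156, 0.133 and 0.08, and Klf13 moved to 0.01. The other 4, not called in either fit, turned sign, Klf7 from -0.88 to 0.37, Klf6 from -0.52 to 0.16, Klf3 from -0.35 to 0.23 and Klf2 from 0.08 to -0.14. Dex against vehicle then called 7 of the 8 in WT (also Klf7, -0.49, and Klf10, -0.49) and 6 in the labelled libraries (also Klf3, 0.52, and Klf6, 0.47), and the rises in WT were 0.40 in place of 0.82 for Klf6 and 0.53 in place of 0.90 for Klf3. The WT value of Klf7 turned from 0.30, not called, to its -0.49. With LPS against vehicle in the labelled libraries, the falls were -0.45 in place of -0.76 for Klf6 and -0.85 in place of -1.30 for Klf9, both still called, and the rise of Klf3 was 0.51 in place of 0.24 and newly called. The fall of Klf6 in WT was then called as well (-0.47, adjusted p = 5.19e-03), so that LPS against vehicle called 8 of the 8 in each genotype. Without the score, Dex called 3506 and LPS 6326 of the 11354 genes in WT, and 3168 and 7299 in the labelled libraries. Shares of all genes with the score are not given for these comparisons, and nothing particular to the 8 is read from these counts. Further new calls were Klf10 with DAMPs against vehicle in WT (-0.47, adjusted p = 0.0342), Klf3 (0.35) and Klf7 (-0.43) with DAMPs + Dex against DAMPs in WT, and Klf3 (0.32) there in the labelled libraries. Klf3 (-0.52) and Klf10 (0.41) with LPS + Dex against LPS in the labelled libraries and Klf10 (-0.68) between genotypes in DAMPs + Dex were also called. The part of the score in these results was not tested.

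**Figure D3:**
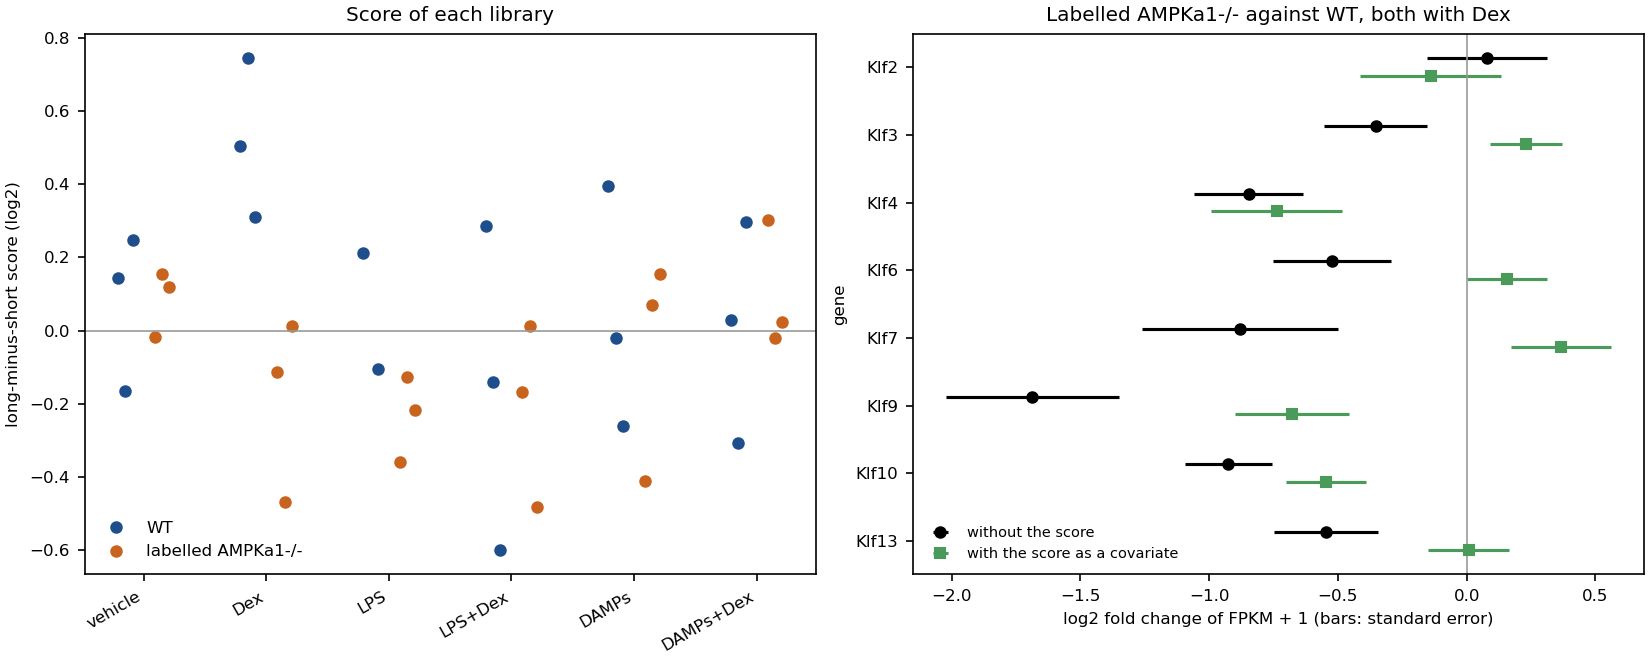
Left, the long-minus-short score (vertical axis, log2) of each library by treatment (horizontal axis), WT in blue and libraries labelled AMPKa1-/- in orange. Right, log2 fold change of FPKM + 1 between labelled and WT Dex libraries (horizontal axis, bars are standard errors) of the 8 genes without the score (black) and with it as a covariate (green); the WT Dex libraries, at 0.31 to 0.74, lie above all labelled Dex libraries, and with the covariate Klf13 is at 0.01.

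Markers of other cells also differed between groups, first between the genotypes in Dex. The summed FPKM of the 8 neutrophil markers was 2.24 to 6.95 in WT Dex and 23.0 to 47.8 in labelled Dex libraries, and all 5 with a mean of at least 1 FPKM were called higher in the latter. S100a8 was the most abundant of them, at 1.10 to 4.19 FPKM and 8.13 to 19.1 FPKM, while Ly6g was 0 in every WT Dex library and at most 0.0738 in the labelled ones. The 5 stromal markers summed to 11.9 to 24.7 FPKM in WT Dex and 2.99 to 4.499 in labelled Dex libraries, led by Col1a2 at 5.84 to 11.9 and 1.46 to 2.19 FPKM. With DAMPs + Dex, where Klf4 was called between genotypes, the stromal sum was 9.42 to 18.5 FPKM in WT and 1.997 to 4.37 in labelled libraries, again without overlap. With DAMPs in WT it was 1.34 to 8.22, and DAMPs + Dex against DAMPs called 2 of the 3 stromal markers tested higher. In bulk RNA fewer cells of a type and less RNA per cell cannot be told apart, and the part of these cells in the Klf values was not tested. The neutrophil marker sum was 1.85 to 32.3 FPKM with vehicle, 126 to 161 with LPS and 511 to 1200 with LPS + Dex in WT. In labelled libraries it was 8.43 to 41.2, 129 to 143 and 329 to 620, again without overlap. LPS against vehicle called 2 neutrophil markers higher in WT, and 2 higher and 1 lower in labelled libraries. The 7 macrophage markers summed to 20960 to 26807 FPKM with vehicle and 13978 to 17230 with LPS in WT. In labelled libraries these sums were 21744 to 32440 and 12948 to 22884. Of the 5 neutrophil markers tested, LPS + Dex against LPS called 1 higher (S100a8, up to 1147 FPKM) and 1 lower (Camp) in each genotype. The 5 endothelial markers summed to 0.937 to 3.29 FPKM with vehicle, 20.8 to 57.4 with LPS and 0.798 to 5.23 with LPS + Dex over both genotypes, led with LPS by Kdr, which reached 52.9 FPKM.

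The family as a whole was read from the summed FPKM of the 17 Klf genes with a row. In WT the sum was 209 ± 18.1 (SD, n = 3) with vehicle, 537 ± 68.8 with Dex, 154 ± 22.0 (n = 2) with LPS, 162 ± 42.0 with LPS + Dex, 205 ± 35.5 with DAMPs and 453 ± 75.6 with DAMPs + Dex. The LPS and LPS + Dex sums overlapped, but their makeup did not stay the same. Klf13 took 13.3% of the sum with LPS and 44.4% with LPS + Dex, and Klf6 43.0% and 19.4% (means of libraries). In the labelled libraries Klf13 took 13.0% and 46.7% and Klf6 46.7% and 20.3%. Klf6 was the largest share with vehicle in both genotypes, at 44.8% and 45.4%.

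**Figure D4:**
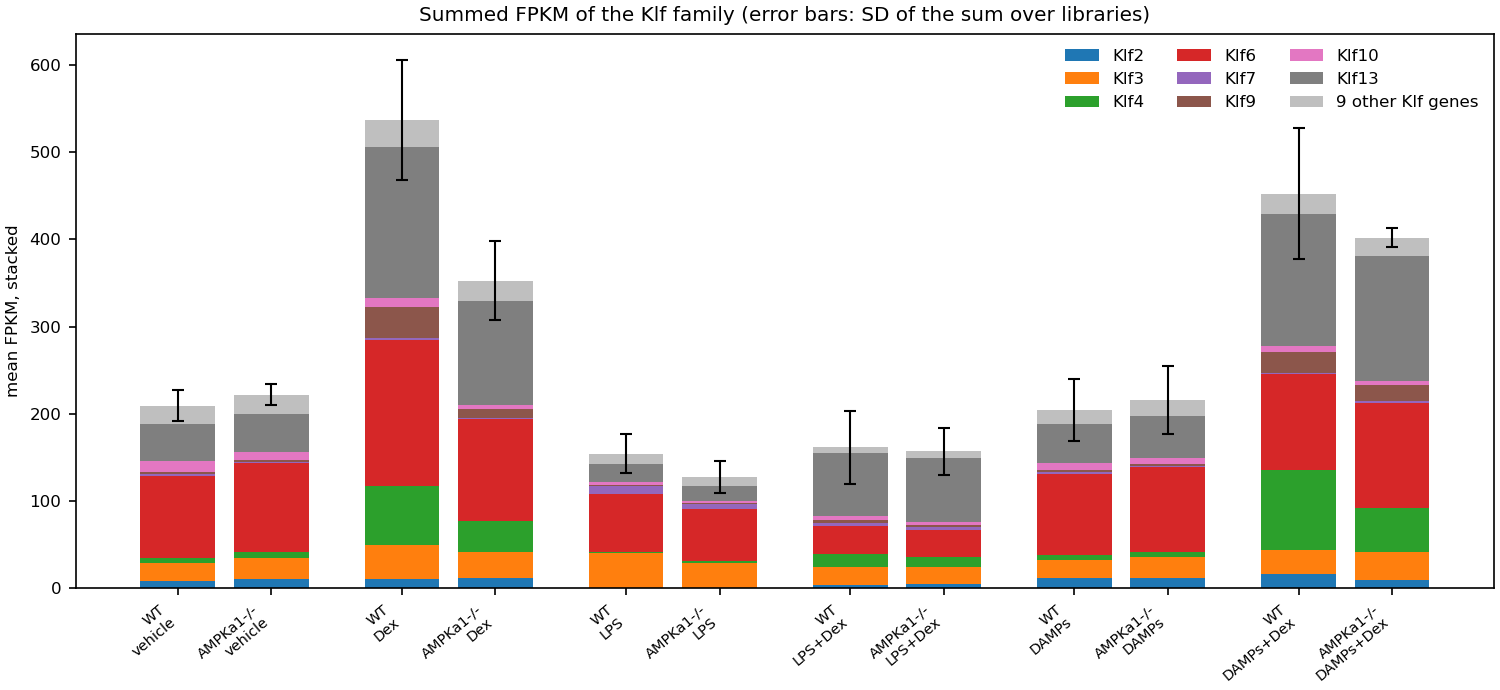
Mean FPKM of the 8 Klf genes and of 9 other Klf genes, stacked (vertical axis), in the 12 groups (horizontal axis); error bars are the SD of the sum over libraries. The WT sum is 537 with Dex and 453 with DAMPs + Dex against 209 with vehicle, and with LPS + Dex, at 162, Klf13 takes the largest part.

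Of the 9 other Klf genes, Klf11, Klf16 and Klf8 had a mean of at least 1 FPKM. Klf11, a TGF-β-inducible relative of Klf10, fell with LPS from 10.5 ± 1.11 to 1.38 ± 0.287 FPKM in WT (log2 fold change -2.27) and from 10.7 ± 0.984 to 1.65 ± 0.740 in the labelled libraries (-2.17). It rose with Dex in WT (log2 fold change 0.78), and with LPS + Dex it was at 0.652 ± 0.129 FPKM. Klf16 stayed between 5.47 and 10.9 FPKM in all libraries. Klf8, at 0.138 to 3.49 FPKM, was called lower in WT with LPS + Dex against LPS (-0.84) and in the labelled libraries with Dex (-0.80) and with LPS (-0.93), the last not with quantile normalization. Klf1, Klf5, Klf12, Klf14, Klf15 and Klf17 had means below 0.1 FPKM. Among the related Sp factors, Sp1 (17.0 to 76.6 FPKM), Sp3 (13.4 to 50.8), Sp2 and Sp4 were tested. LPS lowered Sp1 (-0.69), Sp2 (-0.61) and Sp3 (-0.73) in WT and all 4 in the labelled libraries, where 35.8% and 44.1% of all genes were called lower. Sp4 was called higher with Dex in WT (0.71), and Sp1 (-0.72) and Sp4 (-0.64, not called after quantile normalization) were lower in the labelled than in the WT Dex libraries. Sp1 in WT and Sp4 in the labelled libraries were not called when libraries were centred on one median or quantile normalized.

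Genes that act on or with Kruppel-like factors were taken from lists, whose counts stand beside the shares of all genes called. In WT these shares were 15.9% higher and 14.9% lower with Dex, 19.9% and 35.8% with LPS, 16.6% and 17.5% with LPS + Dex against LPS and 11.7% and 12.6% with DAMPs + Dex against DAMPs. For the labelled libraries they were 11.9% and 16.0%, 20.2% and 44.1%, 19.3% and 18.4%, and 13.1% and 12.2%. The 7 upstream kinases and MEF2 factors, known for driving KLF2 and KLF4 expression, were called higher for 3 and lower for 1 with Dex, lower for 5 with LPS and higher for 1 (Map2k5, 0.38, not called after quantile normalization) with LPS + Dex against LPS in WT. The WT median log2 fold changes in these comparisons were 0.39, -0.71 and 0.28, beside 0.05, -0.19 and -0.03 over all genes. For the ligases they were 0.58, -0.50 and 0.27, for the coregulators 0.03, -0.17 and -0.135, and for the TGF-β and SMAD genes -0.03, -0.515 and -0.26. Of the kinases and MEF2 factors in the labelled libraries, 1 was lower with Dex, 6 lower with LPS and 2 higher with LPS + Dex. Of 5 ubiquitin ligases known to act on KLF proteins, Dex called 3 higher in WT, LPS 1 higher and 2 lower, and LPS + Dex against LPS 1 higher (Fbxw7, 0.47) and 1 lower (Smurf1, -1.10). The labelled libraries gave 2 higher and 1 lower, 1 higher and 3 lower, and 2 higher and 1 lower in the same order. Of 11 coregulators, WT gave 4 higher and 1 lower with Dex, 2 higher and 4 lower with LPS, and 1 higher (Ctbp1, 0.32) and 2 lower (Hdac1, -0.71, and Sin3b, -0.47, not called after centring) with LPS + Dex. In the labelled libraries these were 1 and 2, 2 and 6, and 0 and 2. Of 8 TGF-β and SMAD genes, WT gave 3 higher and 1 lower with Dex, 0 and 5 with LPS, and 1 higher (Smad2, 0.85) and 2 lower (Tgif1, -1.38, and Smad7, -0.64, not called after centring or quantile normalization) with LPS + Dex. The labelled libraries gave 0 and 3, 0 and 7, and 3 and 2. DAMPs against vehicle called 0 genes of these 4 lists in either genotype. DAMPs + Dex against DAMPs called 0 higher and 1 lower kinases or MEF2 factors, 2 and 0 ligases, 2 and 0 coregulators and 1 and 2 TGF-β and SMAD genes in WT, and 1 and 1, 3 and 0, 1 and 0, and 1 and 1 in the labelled libraries. Nothing particular to the lists is read from these counts.

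Known targets of the agents served as controls. Of 7 glucocorticoid-induced genes, 6 rose with Dex and 5 with LPS + Dex against LPS in WT, with Tsc22d3 (5.91), Fkbp5 (5.55) and Dusp1 (2.68) changing most in the latter on the log2 scale, and 6 rose in both comparisons in the labelled libraries. DAMPs + Dex against DAMPs raised 5 of the 7 in each genotype. All 8 LPS-induced genes rose with LPS and fell with LPS + Dex against LPS in both genotypes, led in WT by Cxcl10 (-9.07), Ptgs2 (-8.31) and Il6 (-6.86). DAMPs against vehicle called 1 of these 8 higher in each genotype. Of 7 AMPK subunit genes, 5 were tested, and LPS + Dex against LPS called Prkag2 higher (1.07) and Prkab2 lower (-0.59) in WT.

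The pattern of each member over the 12 group means of log2(FPKM + 1) was compared with that of all genes tested, as a description. Klf4 and Klf13 had a Pearson r of 0.98, Klf4 and Klf9 0.97, Klf9 and Klf13 0.95, and Klf2 and Klf7 -0.94. The genes most like Klf4 were Wdr3, Foxred2 and Kyat1 (r = 0.98 to 0.99), and those most like Klf9 were Pias1, Wdr3 and Tmod1 (r = 0.98 to 0.99). Those most like Klf13 were Abhd15, Rnf169 and Rmnd5a (r = 0.98 to 0.99). For Klf2 these were Bckdha, Ppp1r12c and Maz, for Klf7 Ascc3, Nbas and Naa25, for Klf6 Tmem87a, Crtc3 and Crebl2, for Klf10 Adss, Lin9 and Abhd10 and for Klf3 Plaa, Tbk1 and Eif5, with the last 3 at r = 0.92 to 0.95. The group means share treatments, libraries and scaling.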

How the data were processed

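Total RNA of 35 bone marrow-derived macrophage cultures was sequenced, and the FPKM values of 47069 Ensembl gene IDs were deposited by the authors, 1 file per library. The submitters' processing notes name Bowtie2 2.2.3, TopHat2 2.0.12, HTSeq 0.6.1, DESeq2 and the builds GRCm38 and mm10. Whether counting used strand is not given in the sources used here, so reads of overlapping genes cannot be told apart. FPKM were analysed as log2(FPKM + 1) for 11354 genes with a mean of at least 1 FPKM, in 1 limma 3.58.1 fit (R 4.3.3) of 12 groups with trended moderation and 25 comparisons, each adjusted by Benjamini-Hochberg over all genes at 0.05. Counts were not used, and library totals were read from the FPKM steps of weak genes, of which 55.3 to 63.9% came out whole within 0.001. Replicates correlated at r = 0.967 to 0.993 over 34 pairs within groups. The WT LPS library of replicate 1 was not analysed here.

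All 8 members were named, with the 3 genes most like each and the called members of the lists in LPS + Dex against LPS. The members and lists were chosen with earlier results of these data known. Alternatives were the pseudocount, the filter, scaling, moderation, the samples fitted, the replicate block and each replicate left out. The long-minus-short score and a block shared by genotypes were added after seeing the data. The fit was tested on simulated data. Libraries with the same replicate number deviated together (all 3 pairs above 0.1) in 4 of 16 comparisons. These were Dex and LPS against vehicle and LPS + Dex against LPS in the labelled libraries, and the genotypes with LPS + Dex, and what the number marks is not given. The main fit took all libraries as independent.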

Additional observations from a re-analysis of the deposited data

Results flagged for a closer look

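The change with Dex differed with LPS present from the change with Dex alone, by a limma test of that difference, for 9 results, where 32.0% of all genes were called in WT and 28.4% in the libraries labelled AMPKa1-/-. In WT the difference on the log2 scale was -1.91 for Klf6, -1.79 for Klf3, -1.74 for Klf9 and -1.67 for Klf7, and 1.18 for Klf2. In the libraries labelled AMPKa1-/- it was -1.09 for Klf6 and -0.79 for Klf3, and 1.22 for Klf10 and 1.57 for Klf2. With the long-minus-short score as a covariate the WT values were -0.81 for Klf9 and -0.53 for Klf7, the latter no longer called (adjusted p = 0.121), and Klf7 (-1.14) and Klf9 (-0.70) were called in the labelled libraries, as was Klf10 in WT (0.71, adjusted p = 0.00939). The call of Klf9 in WT was lost with a pseudocount of 0.1, that of Klf7 in WT under 9 of 20 alternatives and that of Klf3 in the labelled libraries under 9 of 22. Klf2, Klf3 and Klf6 were called in both genotypes with the same sign. Whether these differences themselves differ between the genotypes was not tested.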

How the results depend on the processing

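Of 57 called results of single Klf genes, 45 kept their call under all alternatives run, among them 39 of 43 treatment results, 6 of 9 differences in the effect of Dex and 0 of 5 genotype results. The only reversal was Klf13 between genotypes in Dex, at 0.0079 (log2) with the long-minus-short score as a covariate. The cause was not tested.

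The number of the 8 genes called moved as follows. With the score as a covariate it was 1 in place of 0 for DAMPs against vehicle in WT, 5 in place of 3 for DAMPs + Dex against DAMPs in WT, 0 in place of 4 for the genotypes in Dex and 2 in place of 1 for the genotypes in DAMPs + Dex. The last was 0 with a pseudocount of 0.1, no filter, no moderation or only the groups compared, and 2 after centring or quantile normalization. Leaving out 1 library gave 2 to 4 for the genotypes in Dex and 0 to 1 in DAMPs + Dex. For the effect of Dex with LPS in WT it was 3 in place of 5 with a pseudocount of 0.1. A mean of at least 5 FPKM leaves Klf7 untested. Smaller moves with the score were 7 in place of 5 in WT and 6 in place of 4 in the labelled libraries for Dex against vehicle. For LPS against vehicle it was 8 in place of 7 in both genotypes. In the labelled libraries it was also 8 in place of 6 for LPS + Dex against LPS and 5 in place of 4 for DAMPs + Dex against DAMPs. There it was 6 in place of 4 for the effect of Dex with LPS. Shares of all genes with the score are not given for these smaller moves or for DAMPs + Dex against DAMPs in WT. Nothing particular to the 8 is read from any of these counts.

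With the replicate number as a random block, 8 in place of 6 genes were called for LPS + Dex against LPS in the labelled libraries, and with a fixed block 6. The block shared by genotypes called 3 in place of 4 in Dex. Shares of all genes with these blocks are not given for these comparisons.

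Counts of all genes called moved by over 1.5 times. Fitted with only the groups compared, they were 2065 in place of 3871 for LPS + Dex against LPS in WT and 1 in place of 228 for DAMPs against vehicle in WT. Between genotypes they were 19 in place of 49 with vehicle, 3 in place of 87 with LPS, 7 in place of 76 with LPS + Dex, 11 in place of 83 with DAMPs and 35 in place of 120 with DAMPs + Dex. With no filter they were 92 with vehicle, 450 with LPS and 146 with LPS + Dex, and 21, 118, 75, 2 and 9 in place of 0 for the 5 genotype differences in a treatment effect. With the score as a covariate they were 143 in place of 3008 with Dex, 115 with vehicle, 170 with LPS, 199 with LPS + Dex, 165 with DAMPs and 221 with DAMPs + Dex between genotypes, and 407 in WT and 722 in place of 469 in the labelled libraries for DAMPs against vehicle. A mean of at least 5 FPKM gave 27 with vehicle and 54 with DAMPs, a pseudocount of 0.1 gave 41 with DAMPs, and a block shared by genotypes gave 83 with vehicle. Leaving out 1 library gave 304 to 3105 between genotypes with Dex and 26 to 372 for DAMPs against vehicle in WT. It gave 28 to 58 with vehicle, 36 to 110 with LPS + Dex, 25 to 55 with DAMPs and 49 to 97 with DAMPs + Dex between genotypes, and 267 to 453 for DAMPs against vehicle in the labelled libraries. With LPS it gave 22 between genotypes without labelled LPS replicate 1. Fits without a WT LPS library leave 1 in that group and take their spread from the other groups. They stay among the alternatives counted above. The difference in the effect of Dex with DAMPs ranged from 0 to 39 around 1 in WT and from 0 to 112 around 35 in the labelled libraries. With 2 or 3 libraries a group, small differences may have been missed, and levels below 1 FPKM rest on few fragments.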
